A study of Setaria viridis with 32 samples.

Results

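Sugars that reach a developing grain leave the phloem, cross apoplastic spaces and enter the filling tissues, and SWEET proteins are among the membrane facilitators that let sugars pass down their concentration gradient. Clade III SWEETs are known in Arabidopsis, rice and maize mainly as plasma membrane carriers of sucrose that act in export, for example from leaf cells that load the phloem and from maternal seed tissues that feed the embryo or endosperm. Described here are the 6 genes of *Setaria viridis* numbered *SvSWEET11a*, *SvSWEET11b*, *SvSWEET13a*, *SvSWEET13b*, *SvSWEET14a* and *SvSWEET15*, out of 17 SWEET genes in the study's list of sugar genes and 38334 annotated loci. They were chosen by name and locus, without use of their measured levels, and their place in clade III rests on this numbering, since protein sequences were not examined here. *SvSWEET12* (Sevir.9G409400) bears a number of the same range but is not among the 6.

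Transcripts were measured by poly(A)-enriched RNA-seq in whole seed heads of the ecotypes ME034V, which is amenable to transformation, and A.10, a widely used genetic model. Untreated plants of both ecotypes were grown in a controlled chamber, and their heads were taken at 50% emergence of the seed head (50% SH), at anthesis, and 8 and 16 days after anthesis (DAA). With 4 replicates in each of the 8 groups, every one pooled from 4 plants, there are 32 libraries. A value is thus an average over rachis, bristles, spikelets and grains of many plants, and a gene active in fewer cells cannot be told apart from one with less RNA per cell.

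Total counts per library ran between 4557079 and 21175874, with a median of 8178992. Levels are given as CPM, counts scaled to a common library total by TMM, and genes are compared with each other as log2 FPKM, the authors' values per kilobase of locus, unless CPM is named. Changes are log2 fold changes with an approximate standard error (SE) from the quasi-likelihood test of edgeR. That SE can be too small where a large change rests on few counts. The words “rose” or “fell” are written only where the p-value stays under 0.05 after Benjamini-Hochberg adjustment across every locus in the fit. The late stages were looked at through the tonoplast aquaporin genes *SvTIP3;1* and *SvTIP3;3*, whose relatives in other plants are known from seeds. *SvTIP3;1* had 69.5 to 1061 CPM in the 16 libraries of 8 and 16 DAA and at most 1.96 CPM in the 16 earlier ones, and *SvTIP3;3* had 46.0 to 158 CPM against at most 0.981 CPM. Their late presence in these data was known beforehand, and it separates early from late heads only, so that it is no check of the tissue or of the stages within either. One library stood apart, ME034V 16 DAA replicate 3. Its *SvTIP3;1* level was 1061 CPM, against 269 to 297 CPM in the other 3 replicates, its *SvTIP3;3* level was 46.0 CPM, against 105 to 158 CPM, and it had the highest root mean square log2 difference from its group, 0.518 against a median of 0.201 over all libraries. ME034V anthesis replicate 4 was the other library above 0.5, at 0.507, and leaving it out changed no call among the 6 genes. Where a call or the order of the 6 genes changed without replicate 3, the value without it is given as well.

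The 6 genes lie on the minus strand at 5 chromosomes of the *S. viridis* v2.1 assembly, and none overlaps another annotated locus. *SvSWEET11a* is Sevir.6G232500 (chromosome 6, 34215114 to 34217885), and *SvSWEET11b* is Sevir.2G278300 (chromosome 2, 35687486 to 35689414). *SvSWEET13b* is Sevir.3G332800 (chromosome 3, 38910852 to 38913418), and its neighbour in the same stretch is *SvSWEET13a*, Sevir.3G333000, which starts at 38964038 and ends at 38966552. A gap of 50619 bp with 1 further locus, Sevir.3G332900, separates this pair. *SvSWEET14a* is Sevir.8G137700 (chromosome 8, 24588148 to 24590611), and *SvSWEET15* is Sevir.1G174400 (chromosome 1, 24616845 to 24619767). Reads were kept only where they mapped to 1 place, so that any reads that *SvSWEET13a* and *SvSWEET13b* share would be missing from both counts, and how many there are was not measured. Reads of both ecotypes were counted on the same annotation, and an effect of sequence differences between the ecotypes on the counts was not tested.

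**Figure D1:**
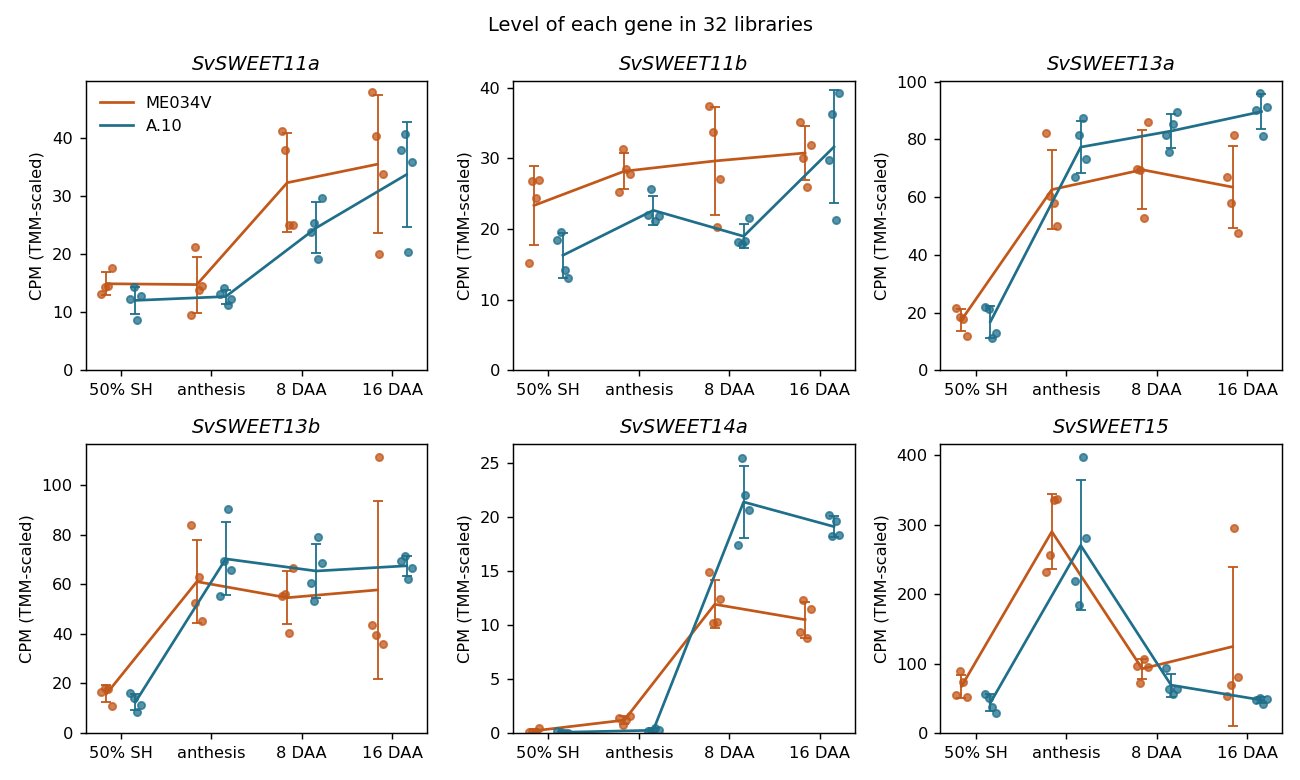
Level of each of the 6 genes in CPM (y axis, from 0, 1 scale per panel) by stage (x axis), with ME034V left of A.10 at each stage. Points are libraries (4 per group), lines join the group means and bars are 1 SD; *SvSWEET15* peaks at anthesis in both ecotypes, *SvSWEET13a* and *SvSWEET13b* stay high from anthesis on, and *SvSWEET14a* is at 8.81 CPM or above in every library from 8 DAA and at 1.52 CPM or below in every earlier one.

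*SvSWEET15*, whose relatives in rice and Arabidopsis are known to export sucrose in seeds, peaked at anthesis. In ME034V it had 54.7, 88.5, 73.0 and 52.2 CPM at 50% SH, 232, 256, 335 and 337 CPM at anthesis, 95.9, 72.5, 106 and 95.6 CPM at 8 DAA, and 53.3, 68.4, 296 and 80.6 CPM at 16 DAA. In A.10 it had 56.3, 50.7, 37.6 and 29.0 CPM at 50% SH, 218, 184, 398 and 281 CPM at anthesis, 93.0, 62.8, 55.9 and 63.8 CPM at 8 DAA, and 47.8, 50.9, 42.0 and 49.0 CPM at 16 DAA. In A.10 every anthesis library lay above every library of the other stages, whereas in ME034V the 16 DAA library of replicate 3 fell inside the anthesis range. The rise at anthesis over 50% SH was 2.11 in ME034V (SE 0.40, edgeR adjusted p = 0.0013) and 2.62 in A.10 (SE 0.23, edgeR adjusted p = 2.8e-07). At 8 DAA relative to anthesis the transcript fell, by 1.65 in ME034V (SE 0.40, edgeR adjusted p = 0.0027) and by 1.96 in A.10 (SE 0.22, edgeR adjusted p = 6.5e-07). The last step, 16 over 8 DAA, did not pass in either ecotype. Its log2 fold change was 0.43 in ME034V (SE 0.39, edgeR adjusted p = 0.59) and -0.54 in A.10 (SE 0.22, edgeR adjusted p = 0.087), and without ME034V 16 DAA replicate 3 the ME034V value was -0.45. The A.10 value passed when A.10 anthesis replicate 3 was left out (edgeR adjusted p = 0.045).

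The pair *SvSWEET13a* and *SvSWEET13b*, numbered like the maize SWEET13 genes that are known for phloem loading in leaves, were low at 50% SH and stayed high from anthesis onwards. *SvSWEET13a* in ME034V had 21.4, 18.3, 17.8 and 12.0 CPM at 50% SH, 82.1, 60.3, 58.0 and 49.9 CPM at anthesis, 69.8, 69.4, 52.6 and 86.1 CPM at 8 DAA, and 66.8, 57.8, 81.5 and 47.7 CPM at 16 DAA. In A.10 it had 21.8, 21.3, 11.2 and 12.9 CPM at 50% SH, 67.1, 81.6, 87.4 and 73.3 CPM at anthesis, 81.4, 75.6, 85.2 and 89.4 CPM at 8 DAA, and 90.0, 96.0, 81.2 and 91.4 CPM at 16 DAA. No library of the later 3 stages overlapped one of 50% SH in either ecotype, while the 3 later stages overlapped each other. The rise at anthesis over 50% SH was 1.84 in ME034V (SE 0.21, edgeR adjusted p = 5.2e-06) and 2.14 in A.10 (SE 0.15, edgeR adjusted p = 3.1e-08). For *SvSWEET13a* the later steps had log2 fold changes between -0.13 and 0.16 in the 2 ecotypes, with none past the threshold.

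*SvSWEET13b* gave the same outline. In ME034V it had 16.4, 18.1, 17.9 and 10.7 CPM at 50% SH, 83.7, 52.2, 63.0 and 45.2 CPM at anthesis, 55.4, 55.9, 40.5 and 66.5 CPM at 8 DAA, and 43.7, 39.6, 112 and 36.0 CPM at 16 DAA. In A.10 it had 15.9, 14.3, 8.24 and 11.3 CPM at 50% SH, 55.2, 69.5, 90.5 and 65.8 CPM at anthesis, 60.3, 53.4, 79.1 and 68.6 CPM at 8 DAA, and 69.5, 71.3, 62.3 and 66.6 CPM at 16 DAA. Again 50% SH did not overlap the later stages, and ME034V 16 DAA replicate 3 was the highest of the 32 libraries. The rise at anthesis over 50% SH was 1.94 in ME034V (SE 0.32, edgeR adjusted p = 0.00033) and 2.44 in A.10 (SE 0.17, edgeR adjusted p = 3.1e-08). Later steps of *SvSWEET13b* had log2 fold changes between -0.15 and 0.08 and did not pass, and the ME034V value for 16 over 8 DAA was -0.46 without replicate 3 of 16 DAA.

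Within the pair, *SvSWEET13a* exceeded *SvSWEET13b* per length in every library of 50% SH and 8 DAA in both ecotypes. The difference of *SvSWEET13a* minus *SvSWEET13b* at 16 DAA was 0.31 ± 0.49 log2 FPKM in ME034V and 0.44 ± 0.04 in A.10 (SD over 4 libraries). The wide ME034V spread came with replicate 3, where *SvSWEET13b* was the higher one by 0.42 log2 FPKM. At anthesis the pair was closest, with a difference of 0.08 ± 0.15 in ME034V and 0.18 ± 0.15 in A.10, positive in 3 of 4 libraries of each.

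The *SvSWEET11* genes were at moderate levels at every stage. *SvSWEET11a*, numbered like a rice gene known for feeding sucrose to the caryopsis, had in ME034V 13.2, 14.3, 14.4 and 17.7 CPM at 50% SH, 9.54, 21.2, 13.8 and 14.5 CPM at anthesis, 41.3, 38.0, 25.0 and 25.0 CPM at 8 DAA, and 47.9, 40.4, 20.0 and 33.8 CPM at 16 DAA. In A.10 its levels were 12.4, 14.3, 8.67 and 12.9 CPM at 50% SH, 13.1, 14.2, 11.3 and 12.3 CPM at anthesis, 23.9, 25.4, 19.1 and 29.8 CPM at 8 DAA, and 37.9, 40.8, 20.4 and 35.9 CPM at 16 DAA. The step of *SvSWEET11a* came after anthesis, with no overlap between 8 DAA and anthesis in either ecotype. At 8 DAA it was above anthesis by 1.13 in ME034V (SE 0.26, edgeR adjusted p = 0.0016) and by 0.98 in A.10 (SE 0.19, edgeR adjusted p = 3.0e-04). Before anthesis its log2 fold change was -0.01 in ME034V (SE 0.26) and 0.04 in A.10 (SE 0.20), and neither passed. At 16 DAA over 8 DAA *SvSWEET11a* had 0.14 in ME034V (SE 0.25, edgeR adjusted p = 0.82) and 0.46 in A.10 (SE 0.18, edgeR adjusted p = 0.063). The A.10 value passed without A.10 16 DAA replicate 3, at 0.64 (edgeR adjusted p = 0.0040), and without A.10 8 DAA replicate 4, at 0.57 (edgeR adjusted p = 0.034).

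*SvSWEET11b* had in ME034V 15.2, 26.8, 24.4 and 26.9 CPM at 50% SH, 25.2, 31.4, 28.5 and 27.7 CPM at anthesis, 37.5, 33.7, 20.2 and 27.1 CPM at 8 DAA, and 35.1, 30.1, 26.0 and 31.9 CPM at 16 DAA. In A.10 it had 18.4, 19.5, 14.2 and 13.0 CPM at 50% SH, 22.0, 25.7, 21.1 and 21.8 CPM at anthesis, 18.2, 17.9, 18.3 and 21.5 CPM at 8 DAA, and 29.8, 36.3, 21.2 and 39.3 CPM at 16 DAA. In ME034V the stages overlapped throughout and no step passed, with log2 fold changes of 0.28 (SE 0.19), 0.08 (SE 0.19) and 0.06 (SE 0.19) in the order of the steps. In A.10 *SvSWEET11b* rose late, by 0.75 at 16 over 8 DAA (SE 0.16, edgeR adjusted p = 0.0022), and this held in all 24 alternative settings tried. Its earlier A.10 rise at anthesis over 50% SH, 0.44 (SE 0.17, edgeR adjusted p = 0.049), was marginal. That call was kept without 4 of the 16 A.10 libraries taken out in turn and lost without any of the other 12, where the adjusted p reached 0.13, so that it is not counted below as more than a borderline value. The difference between the ecotypes in the last step, -0.69 (SE 0.26), did not pass when tested itself (edgeR adjusted p = 0.34).

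*SvSWEET14a*, numbered like a rice gene known as a sucrose carrier and as a target of bacterial blight effectors, was close to absent early and present late. At 50% SH its counts were 1, 1, 1 and 4 in ME034V and 2, 1, 0 and 0 in A.10, and at anthesis they were 9, 6, 10 and 36 in ME034V and 1, 0, 4 and 3 in A.10. A count of 0 allows up to 0.658 and 0.547 CPM in the A.10 libraries of 50% SH replicates 3 and 4, and 0.593 CPM in anthesis replicate 2 (3 counts of the library total, counting error only). At anthesis the levels were 1.34, 0.715, 1.16 and 1.52 CPM in ME034V, against 0.198, 0, 0.490 and 0.289 CPM in A.10, without overlap. At 8 DAA they were 14.9, 10.2, 10.3 and 12.4 CPM in ME034V, against 17.4, 25.5, 22.0 and 20.7 CPM in A.10. At 16 DAA they were 9.37, 12.3, 8.81 and 11.5 CPM in ME034V, against 20.2, 18.2, 19.7 and 18.3 CPM in A.10. The ecotypes thus changed order: ME034V was the higher one at anthesis and A.10 at both later stages, with no overlap at any of the 3. The paper allows that seed development may last longer in 1 ecotype than in the other, and a part of this in the order was not tested.

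From anthesis to 8 DAA *SvSWEET14a* made the largest step among the 6 genes. Pooled over the 4 libraries of a stage, its CPM at 8 DAA was 8.16 times that at anthesis in ME034V (410 against 61 counts, 95% interval 6.22 to 10.9) and 68.2 times in A.10 (723 against 8 counts, 34.4 to 159), where the intervals cover counting error only. The fitted log2 fold changes were 3.27 in ME034V (SE 0.26, edgeR adjusted p = 3.0e-08) and 6.22 in A.10 (SE 0.28, edgeR adjusted p = 7.6e-12). The A.10 SE is too small for 8 counts at anthesis, since counting error alone gave the wider interval of 34.4 to 159 times. At anthesis over 50% SH it rose in ME034V, by 2.70 (SE 0.43, edgeR adjusted p = 0.00025), which in pooled CPM was 7.38 times (61 against 7 counts, 3.37 to 19.1). In A.10 the same step had 8 against 3 counts and did not pass (1.52, SE 0.73, edgeR adjusted p = 0.14), so that a difference there was not detectable at this depth. In A.10 the gene passed the filter on low counts through its late libraries alone. The 16 over 8 DAA step of *SvSWEET14a* had -0.18 in ME034V (SE 0.22) and -0.16 in A.10 (SE 0.15), and neither passed.

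**Figure D2:**
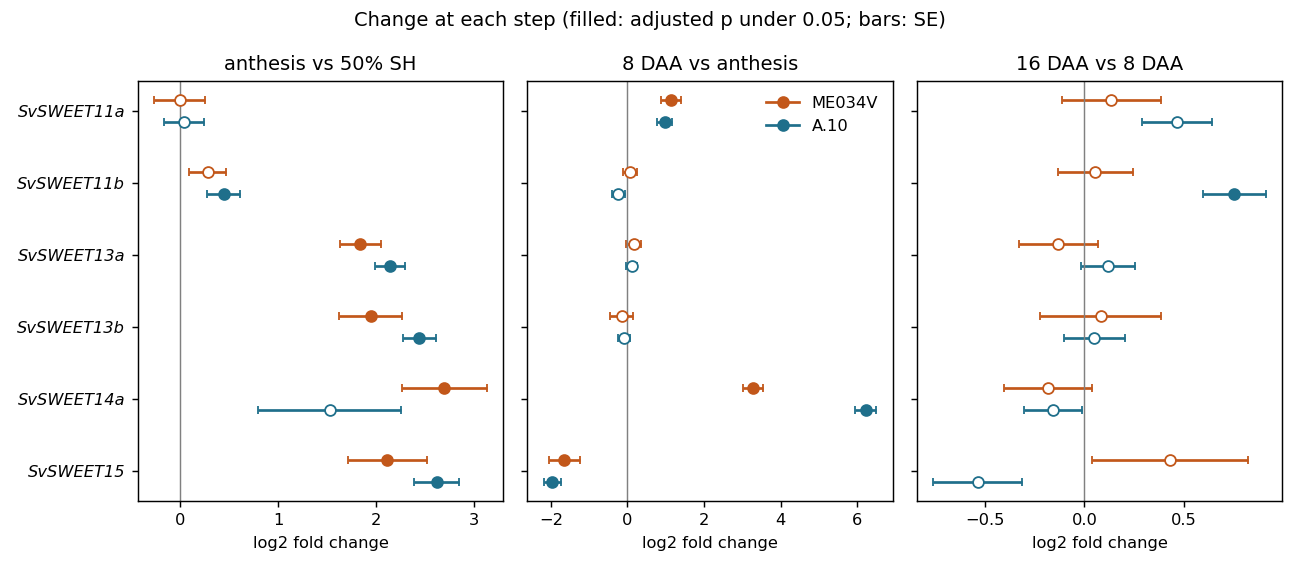
Log2 fold change (x axis, 1 scale per panel) of each gene at the 3 steps between stages, with ME034V above A.10. Points are edgeR estimates from 16 libraries per ecotype, bars are 1 approximate SE and filled points have an adjusted p under 0.05. Bars of *SvSWEET14a* can be too short where few counts were present. *SvSWEET14a* at 8 DAA over anthesis, 3.27 in ME034V and 6.22 in A.10, lies farthest to the right.

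All 6 genes passed the filter on low counts in the fit of each ecotype. At anthesis over 50% SH 4 of 6 rose in ME034V, where 10.4% of all 24144 loci tested rose and 8.14% fell. In A.10 4 of 6 rose, *SvSWEET11b* marginally, where 16.7% of 23984 loci rose and 17.8% fell. The 3 genes *SvSWEET13a*, *SvSWEET13b* and *SvSWEET15* rose in both ecotypes, and the median log2 fold change of the 6 was 1.89 in ME034V and 1.83 in A.10, against -0.03 and -0.01 over all loci. At 8 DAA over anthesis *SvSWEET11a* and *SvSWEET14a* rose and *SvSWEET15* fell in each ecotype. Over all loci 22.2% rose and 24.4% fell in ME034V at that step, and 32.2% rose and 30.4% fell in A.10, and against these shares 3 of 6 is no result about the genes as a group. At 16 over 8 DAA 0 of 6 passed in ME034V, with 0 at an unadjusted p under 0.05 and 0 by DESeq2, where 4.10% of loci rose and 2.61% fell. In A.10 *SvSWEET11b* passed at that step, with 3 of 6 at an unadjusted p under 0.05, where 13.2% of loci rose and 12.5% fell.

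The ecotypes were then compared at each stage in a joint fit of 32 libraries and 25264 loci. At 50% SH 0 of 6 genes passed by edgeR and 0 by DESeq2, where 8.17% of loci were higher in ME034V and 7.30% lower. The 1 gene with an unadjusted p under 0.05 was *SvSWEET11b*, at 0.49 (SE 0.19, edgeR adjusted p = 0.078), which passed without ME034V 50% SH replicate 1, its lowest library (0.65, edgeR adjusted p = 0.010). At anthesis *SvSWEET14a* was the 1 gene that passed, higher in ME034V by 2.12 (SE 0.43, edgeR adjusted p = 0.00047), where 7.12% of loci were higher in ME034V and 7.22% lower. Its call held in all 37 alternatives, with log2 fold changes between 1.83 and 2.62.

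At 8 DAA *SvSWEET14a* was lower in ME034V, at -0.84 (SE 0.19, edgeR adjusted p = 0.0011), and *SvSWEET11b* was higher, by 0.64 (SE 0.18, edgeR adjusted p = 0.010). At that stage 11.9% of loci were higher in ME034V and 9.85% lower. The *SvSWEET11b* libraries overlapped, since ME034V replicate 3 with 20.2 CPM lay below A.10 replicate 4 with 21.5 CPM, and its call was lost without ME034V 8 DAA replicate 1 (0.51, edgeR adjusted p = 0.064). At 16 DAA *SvSWEET14a* had -0.86 (SE 0.19, edgeR adjusted p = 0.00091), *SvSWEET13a* -0.50 (SE 0.18, edgeR adjusted p = 0.038) and *SvSWEET15* 1.39 (SE 0.35, edgeR adjusted p = 0.0030). At 16 DAA 15.8% of loci were higher in ME034V and 12.6% lower. The call for *SvSWEET14a* held in all 37 alternatives at 8 and at 16 DAA. For *SvSWEET13a* it was lost without any 1 of replicates 1, 2 or 4 of either ecotype at 16 DAA, with values between -0.53 and -0.38.

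**Figure D3:**
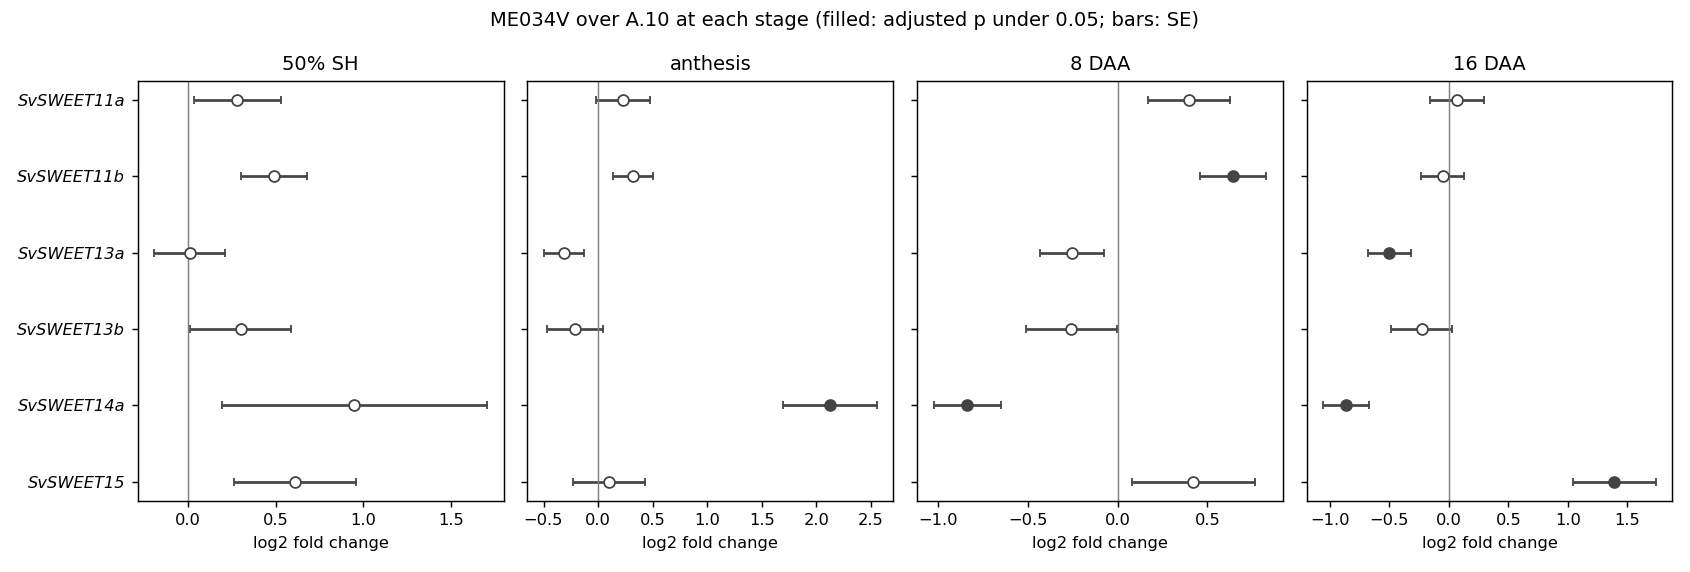
Log2 fold change of ME034V over A.10 (x axis, 1 scale per panel) for each gene at the 4 stages. Points are edgeR estimates from the joint fit of 32 libraries, bars are 1 SE and filled points have an adjusted p under 0.05; *SvSWEET14a* is at 2.12 at anthesis, at -0.84 at 8 DAA and at -0.86 at 16 DAA.

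*SvSWEET15* at 16 DAA depended on the library that stood apart. In ME034V replicate 3 it had 296 CPM, against 53.3 to 80.6 CPM in the other 3 replicates and 42.0 to 50.9 CPM in A.10. Without replicate 3 the log2 fold change was 0.51 and did not pass (edgeR adjusted p = 0.11), although each remaining ME034V library still lay above every A.10 library. *SvSWEET13b* went the other way. It had -0.23 with all libraries (SE 0.26, edgeR adjusted p = 0.56) and -0.76 without replicate 3 (edgeR adjusted p = 0.0043), where the 36.0 to 43.7 CPM of the 3 other ME034V libraries lay below the 62.3 to 71.3 CPM of A.10. In the same library *SvSWEET11a* was at 20.0 CPM, against 33.8 to 47.9 CPM in the other 3 replicates, and *SvSWEET13a* at 81.5 CPM, against 47.7 to 66.8 CPM. *SvTIP3;1* and *SvTIP3;3* moved in opposite directions there, and their part in these differences was not tested.

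**Figure D4:**
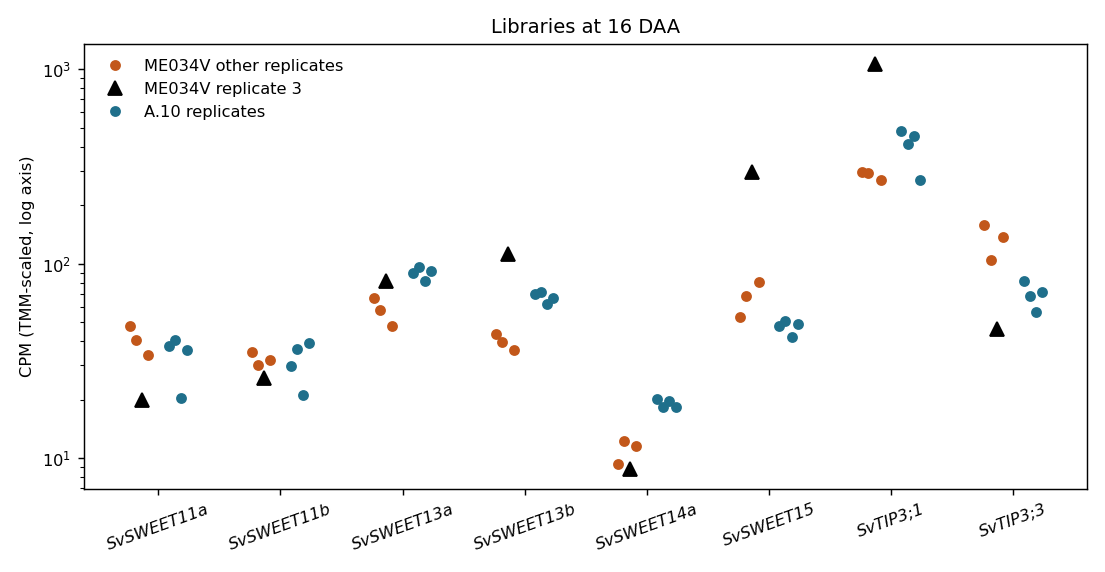
CPM (y axis, log scale) of the 6 genes and of *SvTIP3;1* and *SvTIP3;3* in the 8 libraries of 16 DAA, with ME034V left of A.10. The triangle is ME034V replicate 3 and circles are the other libraries; for *SvSWEET15* the triangle is at 296 CPM and for *SvTIP3;1* at 1061 CPM, above all other libraries of that stage.

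Whether a step differed between the ecotypes was tested by the difference of the log2 fold changes, ME034V minus A.10. At 8 DAA over anthesis *SvSWEET14a* differed by -2.96 (SE 0.46, edgeR adjusted p = 0.00025), in all 37 alternatives, and was the 1 gene of 6 that passed, where 2.13% of 25264 loci did. Its SE rests in part on 8 counts in A.10 at anthesis and can be too small. At anthesis over 50% SH 0 of 6 passed by edgeR, with 0 at an unadjusted p under 0.05 and 0 by DESeq2, where 0.119% of loci passed. At 16 over 8 DAA 0 of 6 passed by edgeR and 0 by DESeq2, with *SvSWEET11b* alone at an unadjusted p under 0.05, where 0.139% of loci passed. For *SvSWEET15* the difference of the last step was 0.97 (SE 0.49, edgeR adjusted p = 0.54), and without ME034V 16 DAA replicate 3 it was 0.09.

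Per length, *SvSWEET15* had the highest mean level of the 6 in all stages of ME034V and in the first 2 stages of A.10, and *SvSWEET13a* had it at 8 and 16 DAA in A.10. The order is a description over 4 libraries a group, where the exact sign-flip test of a paired difference cannot reach 0.05, as the smallest p it allows rounds to 0.13. Of 40 pairs of neighbours in the 8 orders, 24 overlapped between libraries and 16 did not, and in 27 the higher gene was above its neighbour in 4 of 4 libraries. At anthesis the order was *SvSWEET15*, *SvSWEET13a*, *SvSWEET13b*, *SvSWEET11b*, *SvSWEET11a*, *SvSWEET14a* in both ecotypes, and *SvSWEET13a* and *SvSWEET13b* were the 1 pair that overlapped. *SvSWEET15* then reached 6.64 ± 0.27 log2 FPKM in ME034V and 6.44 ± 0.48 in A.10 (SD, n = 4), above 98.7% of the 23713 loci of ME034V and 98.3% of the 23582 loci of A.10 by group mean. It stood above *SvSWEET13a* by 2.00 ± 0.55 in ME034V and 1.53 ± 0.43 in A.10.

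At 50% SH *SvSWEET15* led with 4.52 ± 0.36 log2 FPKM in ME034V and 3.82 ± 0.42 in A.10, followed by *SvSWEET11b* with 3.60 ± 0.39 and 3.04 ± 0.27. In A.10 *SvSWEET15* overlapped *SvSWEET11b* there, although it was the higher one in 4 of 4 libraries. The 3 next genes, *SvSWEET13a*, *SvSWEET13b* and *SvSWEET11a*, overlapped each other as neighbours in both ecotypes, and *SvSWEET11b* overlapped *SvSWEET13a*, with mean levels of the 3 between 2.47 and 2.80 log2 FPKM in ME034V and 2.09 and 2.67 in A.10. At 8 DAA the top of the order was not resolved in ME034V. *SvSWEET15* was above *SvSWEET13a* by 0.20 ± 0.43 log2 FPKM in 2 of 4 libraries there, and in A.10 *SvSWEET13a* with 5.02 ± 0.11 also overlapped *SvSWEET13b* with 4.64 ± 0.25, although it was the higher one in 4 of 4 libraries. Per length, *SvSWEET14a* was last in each group, at 2.31 ± 0.26 in ME034V and 3.10 ± 0.23 in A.10 at 8 DAA. In A.10 it overlapped *SvSWEET11a* (3.12 ± 0.26 at 8 DAA) at both 8 and 16 DAA. By CPM *SvSWEET14a* was ahead of *SvSWEET11b* in A.10 at 8 DAA, with 21.4 ± 3.36 against 19.0 ± 1.69.

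At 16 DAA the orders parted. In ME034V *SvSWEET15* was first with 5.08 ± 1.10 log2 FPKM, and without replicate 3 it was level with *SvSWEET13a*, at 4.54 ± 0.30 against 4.54 ± 0.24 (n = 3), and *SvSWEET11b* with 4.11 then stood above *SvSWEET13b* with 3.99. In A.10 the steps from *SvSWEET13a* (5.14 ± 0.10) to *SvSWEET13b* (4.70 ± 0.09) and to *SvSWEET15* (4.00 ± 0.12) were free of overlap, and *SvSWEET15* was level with *SvSWEET11b* (3.99 ± 0.39). *SvSWEET11b* stood above *SvSWEET11a* in every library of the study, by 1.5 ± 0.34 in ME034V and 1.35 ± 0.06 in A.10 at anthesis and by 0.38 ± 0.38 and 0.44 ± 0.22 at 16 DAA. Order between these genes in CPM, which are not divided by length, put *SvSWEET11a* ahead of *SvSWEET11b* at 8 and 16 DAA in both ecotypes, since the *SvSWEET11b* locus is the shorter, 1929 bp against 2772 bp.

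By mean share, *SvSWEET15* made up less of the summed level of the 6 genes at 8 and 16 DAA than at anthesis, and the *SvSWEET13* pair more. Shares were taken in the summed FPKM of the 6 genes. *SvSWEET15* made up 42.1% ± 4.25 at 50% SH, 58.5% ± 7.70 at anthesis, 28.4% ± 6.33 at 8 DAA and 30.4% ± 14.0 at 16 DAA in ME034V (SD, n = 4). In A.10 it made up 37.4% ± 4.05, 54.3% ± 7.19, 21.5% ± 4.69 and 14.2% ± 0.387 at the same stages. Without replicate 3 the ME034V share at 16 DAA was 23.8% ± 5.64 (n = 3). *SvSWEET13a* had 13.1% ± 3.63, 14.9% ± 3.86, 24.4% ± 2.97 and 21.5% ± 4.39 in ME034V and 16.8% ± 1.72, 18.8% ± 3.11, 30.1% ± 1.14 and 31.2% ± 1.29 in A.10. *SvSWEET11b* was largest at 50% SH, with 22.6% ± 5.09 in ME034V and 21.8% ± 1.57 in A.10. *SvSWEET14a* never exceeded 10.3% in a library, and at 8 DAA it had 4.35% ± 0.481 in ME034V and 8.06% ± 1.68 in A.10.

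**Figure D5:**
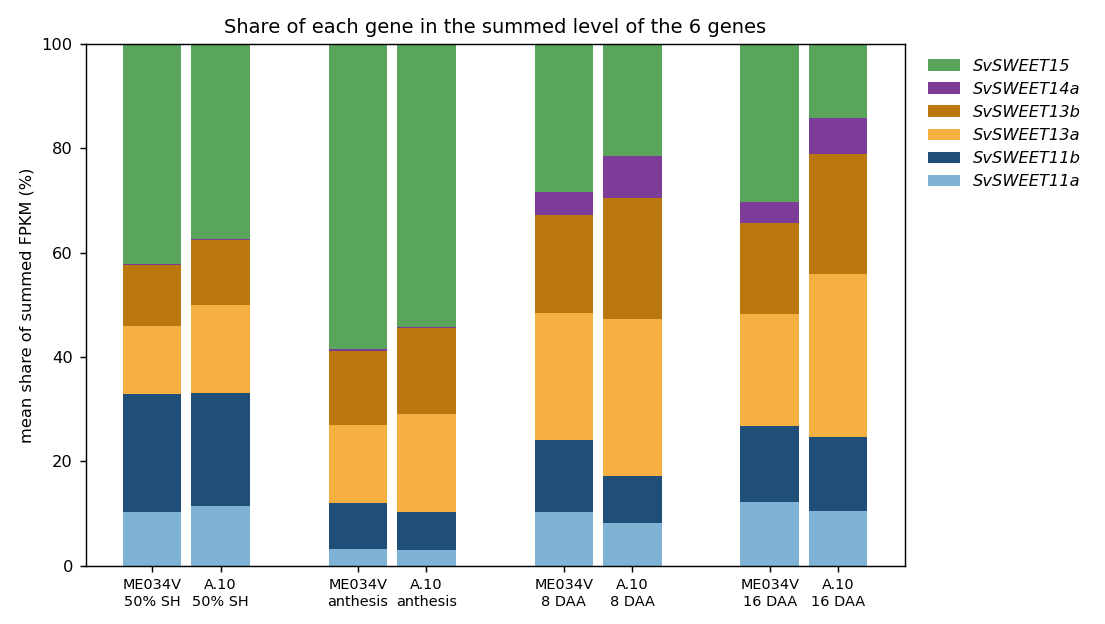
Mean share (y axis, %, 4 libraries per bar) of each gene in the summed FPKM of the 6 genes, by stage and with ME034V left of A.10. *SvSWEET15* at the top of each bar makes up 58.5% in ME034V and 54.3% in A.10 at anthesis, and 30.4% and 14.2% at 16 DAA.

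The summed level of the 6 genes was 55.1 ± 8.52 FPKM at 50% SH, 172 ± 11.8 at anthesis, 115 ± 12.2 at 8 DAA and 127 ± 53.5 at 16 DAA in ME034V, and 100 ± 3.78 at 16 DAA without replicate 3. In A.10 the sums were 38.8 ± 9.07, 164 ± 36.8, 108 ± 5.88 and 114 ± 11.7 FPKM. In both ecotypes every anthesis library was above every 50% SH library. Of the summed FPKM of all listed SWEETs the 6 genes made up 31.1% ± 3.33, 45.5% ± 2.24, 31.9% ± 1.61 and 36.3% ± 3.75 over the stages in ME034V, and 22.9% ± 4.02, 47.5% ± 5.21, 41.1% ± 2.20 and 42.4% ± 1.22 in A.10. The highest SWEET outside the 6 was *SvSWEET1a* at 50% SH in both ecotypes, with 5.70 ± 0.12 log2 FPKM in ME034V and 5.85 ± 0.09 in A.10. At anthesis *SvSWEET15* was the highest of all listed SWEETs, above *SvSWEET5* by 0.58 ± 0.36 in ME034V and above *SvSWEET1a* by 0.85 ± 0.52 in A.10, in 4 of 4 libraries of each. *SvSWEET5* led at 8 DAA in ME034V with 6.63 ± 0.30, above *SvSWEET15* in each library, and *SvSWEET4c* led by mean level at 16 DAA in ME034V with 5.93 ± 0.08, where *SvSWEET15* was above it in 1 of 4 libraries, and at 8 and 16 DAA in A.10 with 5.67 ± 0.08 and 5.65 ± 0.28. These levels and shares are per length of the whole locus, introns included. In CPM, not divided by length, *SvSWEET4c* was ahead of *SvSWEET5* at 8 DAA in ME034V, with 254 ± 55.8 against 155 ± 34.1.

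*SvSWEET13a* and *SvSWEET13b* had the most similar profiles. Over the 8 group means of log2 CPM their Pearson r was 0.991 (0.991 over the 4 means of ME034V and 0.996 over those of A.10), and over deviations of the 32 libraries from their group means it was 0.841, or 0.895 without ME034V 16 DAA replicate 3. *SvSWEET11a* and *SvSWEET14a* followed with 0.928 over group means, but their deviations within groups had an r of 0.01. By Spearman rho over group means this pair had 0.714, below *SvSWEET13a* and *SvSWEET14a* with 0.833 and *SvSWEET11a* and *SvSWEET11b* with 0.81. For *SvSWEET11a* and *SvSWEET11b* the figures were 0.637 over group means and 0.694 over deviations. *SvSWEET13b* and *SvSWEET15* deviated together with an r of 0.614 over 32 libraries and 0.225 without that replicate. These points share stages, ecotypes and library depth, and no p is given.

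The locus most like *SvSWEET13a* and *SvSWEET13b* over the group means was Sevir.3G232600, with an r of 0.995 and 0.993, ahead of the partner gene in both cases. Among 176 listed sugar genes the partner came first and *Sevir.5G435000*, a sucrose phosphate synthase of the sucrose-making pathway, second (r = 0.973 and 0.985). *SvSWEET15* was most like Sevir.4G069600 (0.991) and Sevir.3G402500 (0.990) of all loci, and like the hexose transporter *Sevir.7G171900* (0.95) and the cell wall invertase *Sevir.7G099400* (0.928) of the sugar genes. *SvSWEET11a* was most like Sevir.4G272300 (0.997) and Sevir.3G030701 (0.995), and like the α-amylases *Sevir.1G337700* (0.971) and *Sevir.6G187500* (0.969), enzymes of starch breakdown. For *SvSWEET14a* these were Sevir.3G400601 (0.997) and Sevir.7G059600 (0.997), and the starch branching enzyme *Sevir.1G181900* (0.985) and the starch synthase *Sevir.4G021900* (0.977). *SvSWEET11b* had the least shared profile, with Sevir.9G269500 (0.959) and Sevir.6G107966 (0.945), and the ADP-glucose pyrophosphorylase *Sevir.1G248600* (0.899) and the hexose transporter *Sevir.2G379900* (0.836). Of 25263 other loci, 1132 had an r above 0.95 with *SvSWEET14a*, 881 with *SvSWEET11a*, 80 with *SvSWEET13a*, 56 with *SvSWEET13b*, 45 with *SvSWEET15* and 1 with *SvSWEET11b*.

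Other genes of sucrose transport and cleavage were counted in the same steps, first at anthesis over 50% SH. Of the other SWEETs 3 of 10 tested rose in ME034V and 4 of 11 in A.10, against 10.4% and 16.7% of all loci, with a median log2 fold change of 0.41 and 0.30. Of 4 sucrose transporter (SUT) genes, which import sucrose with protons, 3 rose in each ecotype, and of 9 cell wall invertases, which split sucrose in the apoplast, 5 rose in each. *SvSUT1*, the highest of the SUT genes at anthesis by mean log2 FPKM, had 93.9 ± 14.1 CPM at anthesis against 56.9 ± 4.69 CPM at 50% SH in ME034V, a change of 0.72 (SE 0.12, edgeR adjusted p = 0.00023). In A.10 it had 124 ± 17.2 CPM against 62.4 ± 9.15 CPM, a change of 0.99 (SE 0.12, edgeR adjusted p = 1.0e-05). *Sevir.7G099400*, the invertase picked above for its likeness to *SvSWEET15*, is described without a test of its own, since its course follows from that choice. In both ecotypes it is among the invertases counted as rising at anthesis and as falling at 8 DAA. It had 2.50 ± 1.61 CPM at 50% SH, 15.6 ± 7.02 at anthesis and 4.48 ± 2.02 at 8 DAA in ME034V, and 0.291 ± 0.196, 6.86 ± 1.93 and 1.28 ± 0.468 CPM at these stages in A.10. At 8 DAA over anthesis 22.2% of all loci rose and 24.4% fell in ME034V, and 32.2% rose and 30.4% fell in A.10. Of the other SWEETs 3 of 10 rose and 2 fell in ME034V, and 4 of 11 rose and 6 fell in A.10. Among the A.10 risers was *SvSWEET12*, with 7 counts over the 8 DAA libraries against 0 at anthesis and 0 at 50% SH (edgeR adjusted p = 0.046). Of the 4 SUT genes 1 rose and 1 fell in ME034V, and 1 rose and 3 fell in A.10. Of the 9 cell wall invertases 4 rose and 2 fell in ME034V, and 5 rose and 3 fell in A.10. These genes share libraries with the 6, and nothing particular to either set was tested.

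*SvSWEET12* stayed at or below 2.84 CPM in ME034V. In A.10 it had 6.55 to 10.9 CPM at 16 DAA and at most 0.566 CPM before. The genes used in the study as references for quantitative PCR differed between the ecotypes too. Sevir.3G271600, an elongation factor 1-α, had log2 fold changes of ME034V over A.10 of -0.18, -0.14, -0.32 and -0.42 in stage order, and the values at 8 DAA (edgeR adjusted p = 0.0020) and 16 DAA (edgeR adjusted p = 8.0e-05) passed. Sevir.5G315700, a translation factor, was lower in ME034V at each stage, with -0.93, -0.56, -1.17 and -0.71 (edgeR adjusted p = 0.00063, 0.046, 3.0e-05 and 0.0054). At 8 DAA over anthesis Sevir.3G271600 rose by 0.54 in ME034V (edgeR adjusted p = 0.00023) and by 0.73 in A.10 (edgeR adjusted p = 3.2e-09), while Sevir.5G315700 had -0.18 in ME034V (edgeR adjusted p = 0.58) and rose by 0.42 in A.10 (edgeR adjusted p = 6.0e-06).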

How the data were processed

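The authors extracted RNA from frozen seed heads, made poly(A)-enriched libraries without strand information, and sequenced paired reads of 125 bp. Per the study's methods and the labels they trimmed with Trim Galore, aligned with Subjunc (Subread 1.6.2), kept uniquely mapped reads and counted them over the whole span of each locus, introns included, with featureCounts (version 1.5.0-p1 in the file headers). Counts were deposited for 38334 loci in each of 32 libraries, on annotation v2.1. The deposited log2 FPKM were made by the authors with edgeR for each ecotype on its own, from TMM-scaled counts and a length that spans the whole locus, introns included. Log2 FPKM recomputed here from the counts differ from them by at most 0.0188. FPKM for sums and shares are 2 to the power of these values, which hold the authors' prior count, so shares of genes near 0 counts are upper values.

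Counts were tested with edgeR 4.0.16 in R 4.3.3 (TMM, quasi-likelihood, Benjamini-Hochberg over all loci tested, threshold 0.05). A locus was kept where 3 or more libraries exceeded 1 CPM. Steps between stages were fitted on the 16 libraries of an ecotype, 24144 loci in ME034V and 23984 in A.10, and ecotypes and differences between steps on all 32 libraries and 25264 loci. An approximate SE was taken from each log2 fold change and its F statistic (absolute change over root F), which is imprecise at low counts. Intervals for pooled counts are exact binomial at 95%, and 0 pairs of libraries hold identical counts. Total counts ran between 4557079 and 21175874, so that genes of under 10 counts a library are measured coarsely. The scripts were tested on simulated data.

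The 6 genes, the lists of other genes and the tests were chosen with earlier results of these data known. Named besides the 6 were, for each, the 2 loci and 2 listed sugar genes of highest Pearson r over the 8 group means, the highest other SWEET per group, *SvTIP3;1*, *SvTIP3;3* and the quantitative PCR reference genes. *SvSWEET12*, *SvSUT1* and Sevir.3G332900 were named after their values or place were seen. As alternatives the fits were repeated in DESeq2 1.42.0, in edgeR with DESeq2 size factors, without a filter, with a stricter filter (4 or more libraries over 5 CPM), with a replicate block and without each library. For the steps, limma 3.58.1 was also run on log2 FPKM, and edgeR on only the 8 libraries concerned and on all 32. Sequences of the genes were not used here, since the RefSeq table given (Setaria_viridis_v4.0) pairs 0 of the loci with an entry. No other per-sample columns were present.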

Additional observations from a re-analysis of the deposited data

Results flagged for a closer look

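Among 48 sets of 4 libraries (6 genes in 8 groups), 4 held a library whose gap to its neighbour divided by the range exceeded Dixon's 95% critical value, where chance gives about 1 in 20. *SvSWEET15* had 296 CPM in ME034V 16 DAA replicate 3, against 53.3 to 80.6 CPM in the other 3, and *SvSWEET13b* had 112 CPM in the same library, against 36.0 to 43.7 CPM. *SvSWEET11b* had 21.5 CPM in A.10 8 DAA replicate 4, against 17.9 to 18.3 CPM. *SvSWEET14a* had 0.466 CPM in ME034V 50% SH replicate 4, against 0.0821 to 0.112 CPM, that is 4 counts against 1 count each. A difference between ecotypes in a step was found by its own test for *SvSWEET14a* at 8 DAA over anthesis, -2.96 on the log2 scale in ME034V minus A.10 (edgeR adjusted p = 0.00025).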

How the results depend on the processing

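Among the called comparisons of the 6 genes, the following kept their direction and their call under every alternative run. At anthesis over 50% SH they were *SvSWEET13a*, *SvSWEET13b* and *SvSWEET15* in both ecotypes, and *SvSWEET14a* in ME034V. At 8 DAA over anthesis they were *SvSWEET11a*, *SvSWEET14a* and *SvSWEET15* in both ecotypes, and at 16 over 8 DAA *SvSWEET11b* in A.10. Between ecotypes it was *SvSWEET14a*, at each stage from anthesis on and in the difference of the step to 8 DAA. Precision for *SvSWEET14a* before 8 DAA is limited by 0 to 36 counts a library. FPKM by exon length were not run, since no annotation of the v2.1 build was used here.

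Whether replicate numbers pair libraries across stages is not given by the labels, and the main fits used no pairing. Same-numbered libraries of different stages had deviations with a median r of 0.0125 in ME034V (-0.221 to 0.277, 24 pairs) and 0.0313 in A.10 (-0.162 to 0.194). For differently numbered libraries the medians were 0.00402 and 0.00146. Of 16 libraries, 5 in ME034V and 6 in A.10 correlated best with a library of their own number. With the replicate block 2 of 6 genes passed in A.10 at 16 over 8 DAA, *SvSWEET11a* being added (0.44, edgeR adjusted p = 0.011), and uncalled values changed sign for *SvSWEET13b* at ME034V 16 over 8 DAA (-0.042) and in the ecotype differences of its later steps (0.0099 and -0.093).

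With the 8 libraries of a step 2 genes passed in A.10 at 16 over 8 DAA, *SvSWEET15* being added (-0.55, edgeR adjusted p = 0.023), 745 loci in place of 1619 passed in ME034V at that step, and *SvSWEET11a* at ME034V anthesis over 50% SH had 0.037. The joint fit gave 2668 loci at that ME034V step. *SvSWEET11b* at A.10 anthesis over 50% SH was lost without a filter (edgeR adjusted p = 0.058) and in the joint fit (edgeR adjusted p = 0.080). Other uncalled values that changed sign were *SvSWEET11a* at ME034V anthesis over 50% SH, 0.0017 with DESeq2 size factors and 0.0088 with the stricter filter, *SvSWEET13a* between ecotypes at 50% SH, -0.0047 with DESeq2 size factors, and *SvSWEET13b* at ME034V 16 over 8 DAA, -0.062 with limma. DESeq2 found 86 loci in place of 30 that differed between ecotypes in the step to anthesis and 166 in place of 35 in the last step. For the step to anthesis edgeR called 12 loci with a higher and 18 with a lower difference, and with DESeq2 size factors 11 and 10. For the step to 8 DAA these counts were 292 and 245, and 314 and 218 with DESeq2 size factors. Which loci were shared was not counted. These size factors moved the median of all loci by at most 0.0262. By Spearman rho *SvSWEET13a* and *SvSWEET13b* had 0.857 in place of 0.991. *SvSWEET15* took a mean share of 35.8% over 32 libraries in FPKM and 39.9% in CPM, and it led the order in 6 of 8 groups by either measure and without ME034V 16 DAA replicate 3, the last chosen after seeing the data. The cause of these changes was not tested.

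Leaving out each library in turn gave ranges as follows. Loci passing were 828 to 1831 at ME034V 16 over 8 DAA (828 and 1029 without replicates 1 and 2 of 8 DAA). For ecotype differences in a step they were 8 to 44 of the step to anthesis, 301 to 1472 of the step to 8 DAA (1472 without A.10 8 DAA replicate 1, 301 and 308 without its replicates 2 and 4, 331 without ME034V anthesis replicate 4) and 15 to 259 of the last step (259 without ME034V 16 DAA replicate 3). Genes passing of the 6 were 3 to 4 at A.10 anthesis over 50% SH, 1 to 2 at A.10 16 over 8 DAA, 0 to 1 between ecotypes at 50% SH, 1 to 2 at 8 DAA and 2 to 3 at 16 DAA. Values that crossed 0, none of them called, ran for *SvSWEET11a* between -0.22 and 0.14 at ME034V anthesis over 50% SH, -0.042 and 0.33 at ME034V 16 over 8 DAA, -0.063 and 0.13 at A.10 anthesis over 50% SH, -0.11 and 0.26 between ecotypes at 16 DAA, and -0.26 and 0.094 for the ecotype difference of the step to anthesis. For *SvSWEET11b* they ran between -0.057 and 0.23 at ME034V 8 DAA over anthesis, -0.093 and 0.19 at ME034V 16 over 8 DAA, and -0.20 and 0.079 between ecotypes at 16 DAA. For *SvSWEET13a* they ran between -0.12 and 0.16 between ecotypes at 50% SH and -0.060 and 0.21 for the ecotype difference of the step to 8 DAA. For *SvSWEET13b* they ran between -0.28 and 0.036 at ME034V and -0.20 and 0.047 at A.10 for 8 DAA over anthesis, -0.46 and 0.26 at ME034V and -0.036 and 0.15 at A.10 for 16 over 8 DAA, -0.19 and 0.14 for the ecotype difference of the step to 8 DAA, and -0.51 and 0.21 for that of the last step. For *SvSWEET14a* they ran between -0.12 and 0.10 for the ecotype difference of the last step, and for *SvSWEET15* between -0.45 and 0.68 at ME034V 16 over 8 DAA and -0.044 and 0.35 between ecotypes at anthesis.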
